A study of Bos taurus with 20 samples.

Results

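Gene expression was compared between neck muscle of treated and of control cows after 14 days of cold storage under vacuum. The comparison used every array whose title gives storage day 14, which is 10 of the 20 arrays of the series, 5 per group. The treated animals (DE27, DE29, DE30, DE31 and DE32) had been fed dexamethasone, 0.4 mg a day to each animal over 31 days, and had been injected with estradiol into the muscle, 5 mg a week to each animal in 6 injections. The control animals (K3, K6, K8, K9 and K10) had received neither agent. All samples were neck muscle from the slaughterhouse, kept under vacuum at 4 °C. The same 10 animals also gave the day 0 samples, so day 0 and day 14 are not independent of each other. The labels give neither breed nor age, nor the time between the last dose and slaughter, and both agents were always given together, so their effects cannot be told apart.

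Dexamethasone is a synthetic glucocorticoid, a hormone that binds the glucocorticoid receptor and thereby switches on genes of metabolism, protein breakdown and immune restraint. In muscle, glucocorticoids are known for raising ubiquitin ligases of protein degradation and for dampening inflammation. Estradiol is an oestrogen and acts through oestrogen receptors. RNA in meat is degraded as storage goes on.

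Total RNA of each sample was labelled with 1 dye and hybridised to a bovine oligonucleotide array. The values are log2 signals, background-subtracted and centred on each array's 75th percentile, and a log2 fold change is the treated minus the control mean of these values. The 75th percentile before centring lay between 276.8 and 533 signal units over the 10 arrays and did not differ detectably between groups (two-sided exact permutation test, p = 0.413, adjusted p = 0.921 over 3 measures of signal). Across probes, arrays correlated with r of 0.945 to 0.977 within groups and 0.934 to 0.976 between groups. Arrays DE27 and K6 stood farthest from their groups, with 15.8% and 14.2% of tested probes over 2-fold from the mean of the other animals of the group. Skeletal muscle markers were well above background on all 10 arrays for 14 of 14 tested genes. Slides held both groups in part: slide 2 held K6 with DE27 and DE29, slide 4 held K9 with DE30 and DE31, slide 5 held K10 with DE32, and slide 6 held only the controls K3 and K8.

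Few single genes passed the test after storage. Of 15438 probes tested, 4 were higher in treated muscle (0.0259%) and 7 were lower (0.0453%) at an adjusted p under 0.05 in limma with Benjamini-Hochberg adjustment, 11 in all (0.0713%). The 4 higher probes belonged to IFIT3, SLC4A4, WARS1 and IER3. Of the 7 lower probes, 4 belonged to CYP1A1, RGS1, PER1 and HES6, and 3 carried no gene name. At an unadjusted p under 0.05 there were 866 higher and 750 lower probes (5.61% and 4.86%). In 184 probes all 5 treated animals lay above all 5 controls (1.19%), and in 169 they all lay below (1.09%). The treated mean was over 2-fold higher for 204 probes (1.32%) and over 2-fold lower for 320 (2.07%). When the slide entered the fit as a block, none of the 11 calls held, and their adjusted p lay between 0.0993 and 0.302. In that fit K3 and K8 did not enter the difference, since slide 6 held no treated animal. The log2 fold changes were then -2.95 for PER1, -3.82 for RGS1, -4.37 for CYP1A1 and -2.79 for HES6. They were 1.47 for WARS1, 2.51 for IFIT3, 1.42 for IER3 and 1.51 for SLC4A4. Why the calls were lost was not tested. Without DE29, DE30, K3, K8, K9 or K10, no probe passed. There were 2 calls without DE27, 7 without DE32, 10 without DE31 and 12 without K6. When the spread was estimated from day 0 and day 14 arrays together, with a random replicate block for the animal, 106 probes passed, 41 higher and 65 lower, including all 11. The day 0 arrays spread less within groups (median SD 0.339 against 0.438), so this fit can understate the spread at day 14.

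PER1, a core repressor of the circadian clock and a gene that glucocorticoids induce directly, was 7.73-fold lower in treated muscle. Its log2 signal was 15.70, 15.27, 15.37, 16.01 and 15.52 in controls K3, K6, K8, K9 and K10. In treated animals DE27, DE29, DE30, DE31 and DE32 it was 11.83, 12.01, 12.57, 13.76 and 12.94. The controls sat within a narrow band, and the highest treated animal, DE31, stayed below the lowest control. The log2 fold change was -2.95 ± 0.34 (SE, n = 5 per group, limma adjusted p = 0.0244). Within slides 2, 4 and 5 the difference was -3.35, -2.84 and -2.58. At day 0 it was -2.89 ± 0.20. PER1 was the only one of the 11 probes to pass with another background correction (normexp, adjusted p = 0.0308).

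Other clock genes were measured beside PER1. Of 20 clock genes tested, 1 passed and 9 were above 0, with a median log2 fold change of -0.02 (from -0.08 to 0.06 when each animal was left out), against 0.05 over all 11398 genes tested. PER2 and PER3, the paralogs of PER1, had -1.33 ± 0.40 and -0.69 ± 0.40 (limma adjusted p = 0.304 and 0.577). BHLHE40, a repressor that feeds back on the clock, had 1.41 ± 0.31 (limma adjusted p = 0.179), and none of its treated values overlapped the controls. ARNTL, the activator of the clock loop, had 0.80 ± 0.33, and DBP, an output gene of the loop, had a value of -0.00 ± 0.17.

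CYP1A1, a monooxygenase that the aryl hydrocarbon receptor induces, showed the most negative log2 fold change of the 8 named genes, and was 16.3-fold lower. Controls K3, K6, K8, K9 and K10 had log2 signals of 9.92, 8.73, 9.45, 11.88 and 10.29. The treated animals, in the order DE27 to DE32, had 6.12, 6.42, 7.31, 5.24 and 5.04. The groups did not overlap, although each spread over more than 2-fold (log2 fold change -4.03 ± 0.58, limma adjusted p = 0.0376). Within slide 2 the difference was -2.46, and within slides 4 and 5 it was -5.61 and -5.25. Among 9 tested genes of the aryl hydrocarbon receptor list, CYP1A1 alone passed, 4 were above 0 and the median was -0.13. The sign of that median was not stable, at 0.22 without K8, 0.12 with a gene's probes averaged and 0.15 when the slide was a block. The receptor itself, AHR, had 0.80 ± 0.41 (limma adjusted p = 0.529).

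RGS1, which shortens signalling of G-protein-coupled receptors and is abundant in activated lymphocytes, was 12.6-fold lower. Its log2 signal was 9.34, 9.23, 8.91, 10.52 and 9.39 in controls K3 to K10 and 4.42, 5.71, 5.77, 6.29 and 6.94 in treated animals DE27 to DE32. The highest treated animal, DE32, stayed well below the lowest control, K8 (-3.65 ± 0.44, limma adjusted p = 0.0244). Lymphocyte markers had a median of -0.22 over 14 tested genes with 10 below 0, or 0.03 with normexp. Their summed level, on the log2 scale, ranged from 10.98 to 11.84 in controls and from 10.97 to 11.75 in treated animals, and CD5, CD27, CD79B, GZMA and GZMB were well above background on none of the 10 arrays. The part of lymphocyte content in the RGS1 value was not tested. RGS2, another member of the family, had -1.14 ± 0.31 (limma adjusted p = 0.264). Of 10 tested regulators of G-protein signalling, RGS1 was the single call.

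HES6, a transcriptional regulator of the Hairy/Enhancer-of-split family with a part in myogenic differentiation, was 6.74-fold lower. The controls K3 to K10 had 5.57, 5.67, 5.86, 6.70 and 5.83, and the treated animals DE27 to DE32 had 2.30, 2.34, 3.07, 3.64 and 4.51. The signal was well above background on all 5 control arrays but on 1 treated array, so the treated values lie mostly at the lower end of what the array can measure. The log2 fold change was -2.75 ± 0.41 (limma adjusted p = 0.0376), and with normexp background correction it was -0.30. Of 27 tested satellite cell and myogenic genes 16 were below 0 and HES6 alone passed, with a median of -0.39. That median was -0.04 with normexp and -0.22 without K8, and -0.66, -0.16 and 0.005 within slides 2, 4 and 5. CHRNG, the fetal subunit of the muscle acetylcholine receptor, had -1.99 ± 0.45 (limma adjusted p = 0.185), with 4 of its 5 treated values, from 4.72 to 5.56, below every control, and DE32, at 7.55, within the control range.

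**Figure D1:**
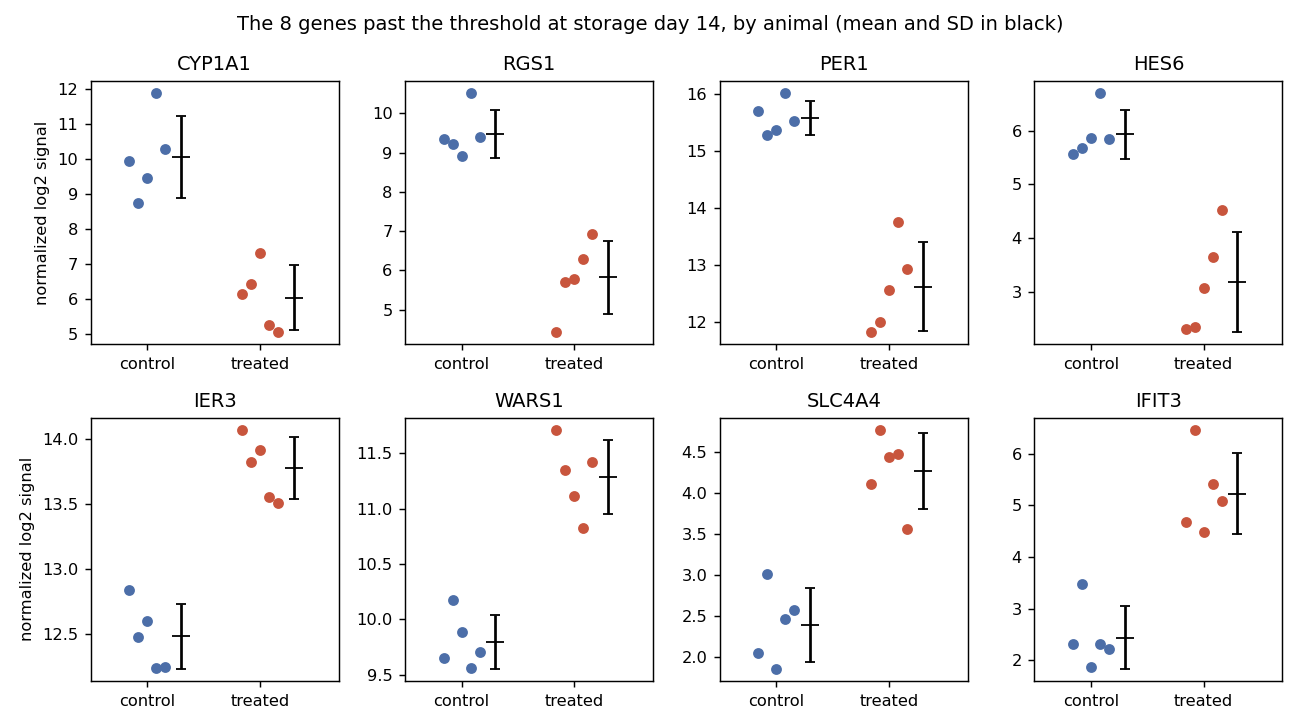
Normalized log2 signal of each of the 8 named genes past the threshold at storage day 14, with 1 point per animal (5 control, 5 treated, each panel on its own log2 scale) and the group mean with its SD in black. The upper row holds the 4 genes lower in treated animals and the lower row the 4 higher ones, and in each panel the groups do not overlap.

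The 3 lower probes without a gene name showed the same separation. One, A_73_120997, is described on the array as similar to a MEGF10 protein and fell from 6.73 to 7.58 over the controls to 3.18 to 5.18 over the treated animals (-2.94 ± 0.37, limma adjusted p = 0.0288). The other two are described only as unidentified transcripts. A_73_106056 ranged from 6.56 to 8.44 in controls and from 2.37 to 5.36 in treated animals (-3.66 ± 0.54, limma adjusted p = 0.0376). A_73_120997 and A_73_106056 were well above background on all 5 control arrays but on 2 and 1 treated arrays, so the treated values lie mostly near background, and with normexp neither passed (adjusted p = 0.9998). The last one had -1.65 ± 0.22 (limma adjusted p = 0.0358).

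IFIT3, an interferon-induced protein of the antiviral response, led the genes that were higher in treated muscle. Controls K3 to K10 had 2.31, 3.47, 1.88, 2.31 and 2.21, and treated animals DE27 to DE32 had 4.67, 6.47, 4.49, 5.41 and 5.09. IFIT3 was well above background on none of the control arrays and on 4 treated arrays, so the size of the difference is uncertain. The difference was 5.93-fold when each control value was set no lower than the lowest signal among probes well above background on that array. The fitted log2 fold change was 2.79 ± 0.39 (limma adjusted p = 0.0376). At day 0 it was 2.81 ± 0.33. With normexp background correction, which compresses signals this low, the value was 0.55 (adjusted p = 0.9998).

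WARS1, the cytosolic tryptophanyl-tRNA synthetase and a gene that interferon-gamma induces, was 2.81-fold higher and well above background on every array. Its log2 signal was 9.65, 10.17, 9.88, 9.56 and 9.71 in controls K3 to K10. In treated animals DE27 to DE32 it was 11.71, 11.34, 11.12, 10.83 and 11.42. Both groups were tight, and the gap between the lowest treated and the highest control animal exceeded the SD of either group. The log2 fold change was 1.49 ± 0.21 (limma adjusted p = 0.0376), and it ranged from 1.38 to 1.60 when each animal was left out in turn.

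Interferon genes as a group leaned towards the treated animals, with 2 of the listed genes past the threshold. Of 20 interferon-stimulated genes tested, 19 were above 0 and 1 passed, with a median of 0.61, against 0.05 over all tested genes, of which 6405 of 11398 were above 0. Of 18 interferon-gamma type genes, 11 were above 0 and 1 passed, with a median of 0.72. Antigen presentation genes had a median of 0.33, with 20 of 23 above 0 and none past the threshold (0 by limma at an adjusted p under 0.05). At an unadjusted limma p under 0.05, 5 of them were higher and 1 lower, against 5.61% and 4.86% of all probes. The list level was not even over animals. For interferon-stimulated genes, the median deviation from the mean over all arrays was 1.20 in DE29 and 0.62 in DE32, and 0.18, 0.11 and -0.20 in DE31, DE27 and DE30. Among controls it was 0.14 in K6 and lay between -0.61 and -0.27 in the others. Without DE29 the median log2 fold change of the list was 0.45, and with normexp it was 0.38. Within slides 2, 4 and 5 it was 0.46, 0.40 and 1.31, that of interferon-gamma type genes was 0.50, 0.19 and 1.01, and that of antigen presentation genes was 0.21, -0.17 and 1.27.

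The interferon genes IDO1 and GBP4 fell short of the threshold by a small margin in the main fit, and ZBP1 lay farther from it. IDO1, which degrades tryptophan, had log2 signals of 6.05, 7.03, 8.02, 6.93 and 7.48 in controls K3 to K10 and 10.33, 8.93, 8.96, 9.69 and 8.96 in treated animals DE27 to DE32. The groups did not overlap, but the value of 2.27 ± 0.38 missed the threshold (limma adjusted p = 0.0796). GBP4, an interferon-induced GTPase, ranged from 6.01 to 7.90 in controls and from 8.19 to 9.46 in treated animals (2.07 ± 0.36, limma adjusted p = 0.0838). Both passed with the spread taken from all 20 arrays and the animal as replicate block (adjusted p = 0.00854 and 0.00701). Neither passed with the slide as a block (limma adjusted p = 0.538 and 0.147) or with normexp (limma adjusted p = 0.441 and 0.980). ZBP1, a sensor of foreign nucleic acids, was well above background on all 5 treated and on none of the control arrays. It was 3.54-fold higher (1.82 ± 0.38, limma adjusted p = 0.149), and with normexp the log2 value was 0.49 (limma adjusted p = 0.9998). Its lowest treated value, 5.28 in DE30, lay just under the highest control value, 5.37 in K6.

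Interferon members without a difference of that size were present too. The chemokines CXCL9 and CXCL10 had -0.03 ± 0.50 and -0.27 ± 0.32, and IFNGR1, a chain of the interferon-gamma receptor, had -1.03 ± 0.33 (limma adjusted p = 0.327). Markers of macrophages and monocytes had a median of -0.24 over 16 tested genes, 13 of them below 0. That median was -0.05 without K9 and 0.06 with normexp, and -0.99, -1.26 and 0.96 within slides 2, 4 and 5. Their summed level ranged from 12.02 to 13.97 in controls and from 12.21 to 13.74 in treated animals, and FCGR1A and ITGAM were above background on no array. In whole muscle, fewer cells of a type and less RNA per cell cannot be told apart.

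Among chemokines and cytokines, CCL2 and CXCL14 had the smallest p. CCL2, which attracts monocytes, had 7.05, 8.31, 8.16, 6.19 and 6.99 in controls K3 to K10 and 9.28, 8.83, 9.78, 10.16 and 11.69 in treated animals DE27 to DE32. The groups did not overlap (2.60 ± 0.54, limma adjusted p = 0.150), and the difference was 0.74 within slide 2 but 3.77 and 4.70 within slides 4 and 5. CXCL14, a chemokine made by stromal cells, ranged from 8.21 to 9.50 in controls and from 6.33 to 7.86 in treated animals, without overlap (-1.53 ± 0.33, limma adjusted p = 0.179). Over the 24 tested members 15 were above 0, the median was 0.19 (0.06 without K10, and -0.12, -0.30 and 0.72 within slides 2, 4 and 5) and none passed (0 by limma after adjustment). At an unadjusted limma p under 0.05, 3 members were higher and 2 lower, against 5.61% and 4.86% of all probes.

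IER3, an early response gene that protects cells from apoptosis, passed at day 14. Its log2 signal was 12.84, 12.48, 12.60, 12.24 and 12.25 in controls K3 to K10 and 14.07, 13.83, 13.92, 13.56 and 13.51 in treated animals DE27 to DE32. The groups did not overlap and their SDs were 0.25 and 0.24 (1.30 ± 0.19, limma adjusted p = 0.0376). At day 0 the value was 0.89 ± 0.31 (limma adjusted p = 0.162), and the difference between the days did not pass (limma adjusted p of the interaction 0.998). The call was lost whichever of the 10 animals was left out. Of 29 tested immediate early genes, 11 were above 0, IER3 alone passed and the median was -0.09 (0.04 without DE27, 0.02 with normexp).

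SLC4A4, a sodium bicarbonate cotransporter, was 3.15-fold higher with control values set as for IFIT3, which is not a lower limit. It was well above background on no control array and on 2 treated arrays, with signals of 1.85 to 3.01 in controls and 3.56 to 4.77 in treated animals. The fitted value was 1.88 ± 0.28 (limma adjusted p = 0.0376), and with normexp it was 0.46 (limma adjusted p = 0.9998). A further probe for the gene, well above background on 2 control and 5 treated arrays, gave 1.36 ± 0.47 (limma adjusted p = 0.377).

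**Figure D2:**
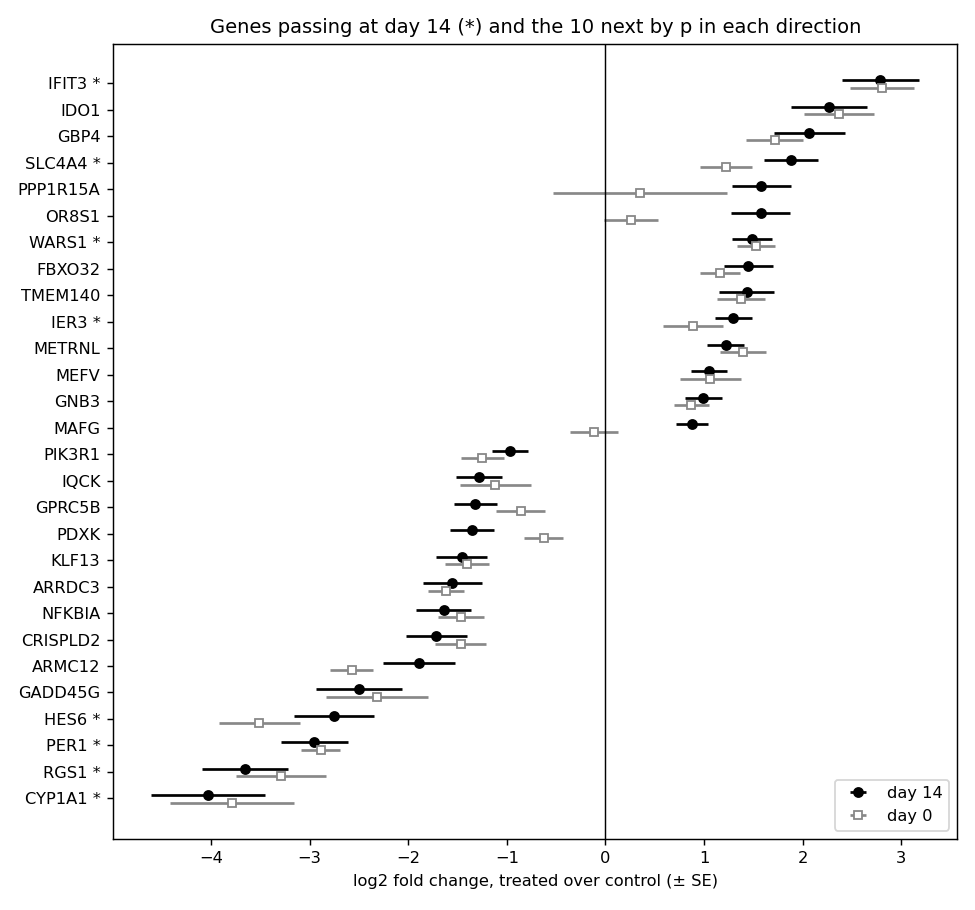
Log2 fold change of treated over control with its SE for the 8 named genes that passed at day 14 (asterisk) and the 10 genes of next smallest p in each direction, at day 14 (filled circles) and day 0 (open squares), 5 animals per group. The markers of both days lie on the same side of 0 for all genes drawn except MAFG, at 0.88 on day 14 and -0.12 on day 0.

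Most of the next genes by p-value had the same sign at both days. The 10 higher genes closest to the threshold were METRNL, IDO1, MEFV, FBXO32, GBP4, GNB3, MAFG, OR8S1, PPP1R15A and TMEM140, with log2 fold changes from 0.88 to 2.27 and adjusted p from 0.0523 to 0.112. Of these 9 had the same sign at day 0 and 6 had passed there. The 10 lower genes were PDXK, GPRC5B, NFKBIA, GADD45G, KLF13, IQCK, CRISPLD2, PIK3R1, ARMC12 and ARRDC3, with adjusted p from 0.0765 to 0.115. All 10 had the same sign at day 0 and 7 had passed there. Over all tested probes, 64.5% shared the sign and 2.47% passed at day 0. Both days come from the same animals, so the shared sign is not an independent result. METRNL, a secreted muscle and fat factor, was closest of all: 9.76 to 10.35 in controls and 11.14 to 11.78 in treated animals (1.22 ± 0.19, limma adjusted p = 0.0523). It passed under several other settings, among them array weights (limma adjusted p = 0.0311). It did not pass with the slide as a block (limma adjusted p = 0.353), with normexp (0.363) or when any 1 animal was left out (0.0762 to 0.196). MEFV, OR8S1 and PPP1R15A were well above background on no control array and on 2, 4 and 4 treated arrays. ARMC12 was well above background on 3 control arrays and on no treated array. With normexp MEFV, OR8S1, PPP1R15A and ARMC12 had 0.29, 0.47, 0.42 and -0.09 (limma adjusted p = 0.9998 for each). The size of their differences is therefore uncertain.

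Genes that glucocorticoids are known to induce lay mostly below 0 in the treated animals. Of 34 tested members, 22 were below 0 and 12 above, with a median of -0.50, and PER1 was the 1 call. In 6 members all treated values lay below all controls and in 2 they lay above, against 1.09% and 1.19% of all probes. The median lay between -0.62 and -0.33 when each animal was left out in turn, and was -0.46, -0.43 and -0.64 within slides 2, 4 and 5. With normexp it was -0.25. NFKBIA, the inhibitor that holds NF-kB in the cytoplasm, had 12.83, 12.67, 13.32, 14.09 and 13.23 in controls K3 to K10 and 11.56, 12.01, 11.29, 11.86 and 11.22 in treated animals DE27 to DE32 (-1.64 ± 0.28, limma adjusted p = 0.0796). All treated values were below all controls. GADD45G, a growth arrest gene, had 14.25, 12.77, 13.83, 14.79 and 15.41 against 12.17, 11.51, 12.04, 11.85 and 10.97 in the same order of animals (-2.50 ± 0.44, limma adjusted p = 0.0838).

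FKBP5, a co-chaperone that restrains the glucocorticoid receptor, varied strongly among controls. Its log2 signal was 8.37 in K3, 11.11 in K6, 10.26 in K8, 12.08 in K9 and 12.26 in K10. The treated animals lay between 7.85 and 8.99, a range that includes K3. The log2 fold change of -2.15 ± 0.63 did not pass (limma adjusted p = 0.291), and within slides 2, 4 and 5, which do not hold K3, it was -2.91, -3.11 and -3.28. PIK3R1, the regulatory subunit of PI3-kinase, had -0.97 ± 0.18 (limma adjusted p = 0.0967), CRISPLD2 -1.72 ± 0.31 (limma adjusted p = 0.0843) and CDKN1A, an inhibitor of the cell cycle, -1.18 ± 0.33 (limma adjusted p = 0.273). Other probes of PIK3R1 gave -0.65 and -0.32, and another of CRISPLD2 gave -0.35. KLF9 had -0.71 ± 0.25 and TSC22D3 -0.71 ± 0.43, the latter well above background on 3 of the 10 arrays. KLF15 was above background on none.

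Of the 12 members above 0, FBXO32 had the smallest p. FBXO32, the ubiquitin ligase atrogin-1 of muscle wasting, had 13.21, 13.90, 12.74, 13.93 and 13.47 in controls K3 to K10 and 14.90, 14.46, 15.20, 15.04 and 14.90 in treated animals DE27 to DE32. The groups did not overlap (1.45 ± 0.25, limma adjusted p = 0.0838), and the gene passed with the spread from all 20 arrays and the replicate block (adjusted p = 0.00561). FBXO32 did not pass with the slide as a block (limma adjusted p = 0.471) or with normexp (limma adjusted p = 0.9998). TRIM63, the other main ubiquitin ligase of atrophy, had 0.24 ± 0.42, with overlapping ranges of 12.14 to 13.90 and 12.77 to 14.69. METTL21E, a muscle lysine methyltransferase, had 1.57 ± 0.36 (limma adjusted p = 0.186). Over 16 tested atrophy and FOXO genes the median was 0.12 (-0.0043 without K9, and 0.28, 0.54 and -0.59 within slides 2, 4 and 5), with 10 above 0 and no call (0 by limma after adjustment). At an unadjusted limma p under 0.05, 1 was higher and 0 lower, against 5.61% and 4.86% of all probes.

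ANGPTL4, a secreted inhibitor of lipoprotein lipase, showed the most positive value among the named genes. Controls K3 to K10 had 9.34, 6.999, 9.99, 11.34 and 11.61, and treated animals DE27 to DE32 had 12.69, 13.02, 12.88, 12.85 and 13.19. The groups did not overlap, the SD was 0.19 in treated animals and 1.85 in controls, and the value of 3.07 ± 0.71 did not pass (limma adjusted p = 0.191). PDK4, another fasting-responsive gene of fuel choice, had 0.01 ± 0.74, with K6 again the lowest control at 7.72 and the others between 10.38 and 12.30. DGAT2, which completes triglyceride synthesis, had 9.01, 7.86, 9.83, 10.66 and 10.64 in controls and 13.06, 11.55, 12.76, 9.19 and 11.33 in treated animals. DE31 fell inside the control range, and the value of 1.98 ± 0.74 did not pass (limma adjusted p = 0.405).

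The receptors did not pass. NR3C1, the glucocorticoid receptor, had 0.38 ± 0.20 (limma adjusted p = 0.548), and ESR1, an oestrogen receptor, -0.65 ± 0.38 (limma adjusted p = 0.582). HSD11B1, which regenerates active glucocorticoid, had -0.63 ± 0.58. PGR, a classical oestrogen target, was too dim to be tested. Of 10 tested oestrogen-responsive genes 4 were above 0, the median was -0.12 (-0.0062 without DE30) and none passed (0 by limma after adjustment). At an unadjusted limma p under 0.05, 1 was higher and 1 lower, against 5.61% and 4.86% of all probes. Of the 25 tested genes of the myostatin and IGF axis, 22 were below 0, with a median of -0.27 (-0.18 without DE27, -0.17 with normexp) and no call. At the same unadjusted limma p, 1 of them was higher and 3 were lower. MSTN itself, which restrains muscle growth, ranged from 2.30 to 7.84 in controls and from 3.07 to 6.96 in treated animals, and IGF1 had -0.26 ± 0.42.

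Energy metabolism genes lay slightly above 0, with large differences between animals. The 77 tested nuclear genes of oxidative phosphorylation had a median of 0.34, with 75 above 0 and none past the threshold (0 by limma after adjustment). At an unadjusted limma p under 0.05, 2 of the 77 were higher and 0 lower, against 5.61% and 4.86% of all probes. Within slides 2 and 4 the median was 1.14 and 0.67, and within slide 5 it was -0.73. Without DE27 it was 0.20. In single animals the list stood highest in DE27 (0.85) and DE30 (0.60) and lowest in K6 (-0.57) and K9 (-0.56), while DE31 and DE32 lay at -0.36 and -0.32. The 33 fatty acid oxidation genes had a median of 0.43 with 32 above 0 and none called, and at the same unadjusted limma p 4 were higher and 0 lower. Without K6 the median of the fatty acid oxidation genes was 0.27. Within slides 2, 4 and 5 their median was 1.49, 0.41 and -0.36. UCP3, a mitochondrial carrier induced by fatty acids, had 1.69 ± 0.45 (limma adjusted p = 0.262) and CPT1A, which admits fatty acids to mitochondria, 1.06 ± 0.35 (limma adjusted p = 0.363). MB, myoglobin, separated the groups completely, from 17.95 to 18.47 in controls and from 18.81 to 19.37 in treated animals (0.79 ± 0.18, limma adjusted p = 0.179), with some of its spots saturated on 1 array.

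Genes of the connective tissue were all below 0. The 39 tested fibroblast and matrix genes had a median of -0.69, from -1.87 for ELN, elastin, to -0.07 for OGN, and none passed (0 by limma after adjustment). At an unadjusted limma p under 0.05, 6 of the 39 were lower and 0 higher, against 4.86% and 5.61% of all probes. COL1A1 and COL3A1, the main fibrillar collagens, had -1.07 ± 0.63 and -0.99 ± 0.51. MMP2, a gelatinase, was the 1 member whose groups did not overlap on the probe of smallest p (-0.90 ± 0.24, limma adjusted p = 0.258). The list followed single animals: its deviation was 1.08 in K6 and 0.54 in K9, and -1.37 in DE27 and -0.93 in DE29, whereas DE31 and DE32, at 0.34 and 0.29, lay above K3, K8 and K10. The median was -2.15 within slide 2, -0.37 within slide 4 and 0.41 within slide 5. At day 0 it was 0.04 in the same animals. Smooth muscle and pericyte markers had a median of -0.42 (14 of 18 below 0), nerve and Schwann cell markers -0.54 (9 of 13), endothelial markers -0.04 (11 of 21) and fat cell markers -0.31 (5 of 9). These medians moved with single animals. Without K6 the smooth muscle median was -0.28, without DE27 the nerve median was -0.27, and without K9 the endothelial median was 0.16. The fat cell median was 0.35 without DE27 and 0.17 with normexp background correction, and 3 of its genes were well above background on all 10 arrays. With normexp the matrix median was -0.42, the smooth muscle median -0.26 and the nerve median -0.09. Within slide 5 the smooth muscle, nerve, endothelial and fat cell medians were 1.02, 0.93, 1.26 and 0.59.

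**Figure D3:**
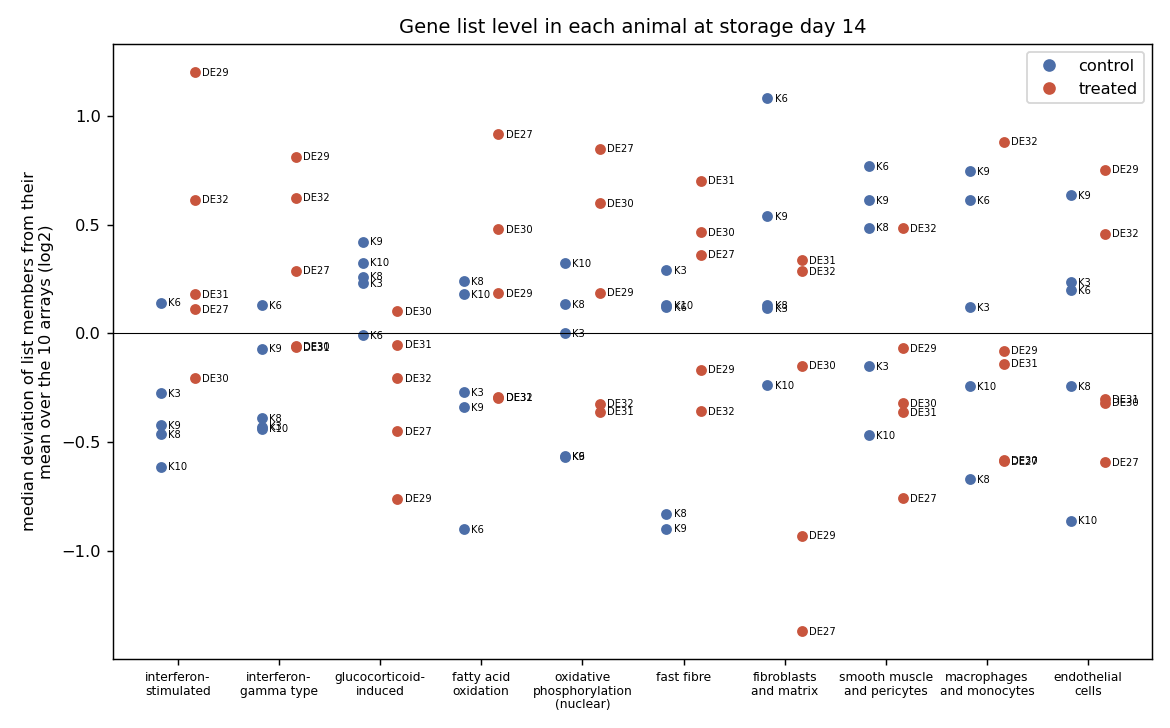
Level of 10 gene lists in each animal at storage day 14, as the median deviation (log2) of the list's members from their mean over the 10 arrays, with 1 labelled point per animal and control and treated animals in different colours. Glucocorticoid-induced genes lie between -0.01 and 0.42 in controls and between -0.76 and 0.10 in treated animals, while fibroblast and matrix genes spread from 1.08 (K6) to -1.37 (DE27).

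No muscle fibre gene and no gene of meat ageing passed at day 14. Skeletal muscle markers had a median of 0.30 (13 of 14 above 0), fast fibre genes 0.28 (14 of 15) and slow fibre genes 0.17 (11 of 15), and none of these genes passed. The slow fibre median was -0.03 without DE30 and -0.02 with quantile normalization. The fast fibre median was 0.12 without DE31 and 0.09 with quantile normalization, and -0.18, 1.62 and -0.52 within slides 2, 4 and 5. The skeletal muscle median was 0.49 without K10 and -0.57 within slide 5. The fast fibre level was lowest in K9 (-0.90) and K8 (-0.83) and highest in DE31 (0.70). At day 0 the skeletal muscle, fast fibre and slow fibre medians were -0.26, -0.21 and -0.10, with 3, 3 and 6 genes above 0. MYH7, the slow myosin heavy chain, had 0.17 ± 0.21. CAPN1, the calpain that softens meat after slaughter, ranged from 11.16 to 11.65 in controls and from 11.43 to 11.78 in treated animals (0.15 ± 0.16, limma adjusted p = 0.762). CAST, its inhibitor calpastatin, had -0.12 ± 0.21 (limma adjusted p = 0.859). Over the 22 calpain and protease genes the median was -0.03, with none past an unadjusted p under 0.05 on the probe of highest signal. CAPN5 gave 0.61 ± 0.23 (limma adjusted p = 0.405) on a further probe and -0.42 ± 0.33 on that of highest signal. Ribosomal protein genes (median 0.02 over 76) and reference genes (0.02 over 17) lay at the level of all genes.

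The treatment difference at day 0 was largely measured again at day 14 in the same animals. At day 0, 382 probes passed (2.47%), 209 higher and 173 lower in treated muscle (1.35% and 1.12%). Of the 209 higher probes, 204 were above 0 at day 14 (97.6%), and of the 173 lower probes 165 were below 0 (95.4%). Over all tested probes the sign was shared by 64.5%. The median log2 fold change of the higher probes was 1.03 at day 0 and 0.73 at day 14, and that of the lower probes was -1.15 and -0.79. Because these probes were chosen for their day 0 values, smaller values at another day are a description and not a test. At day 14, 3 of the higher and 6 of the lower probes passed, and 116 and 105 had an unadjusted p under 0.05 in the same direction. Conversely, of the 11 probes that passed at day 14, 9 had passed at day 0 and all 11 had the same sign there.

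The spread between animals of a group was larger after storage. The median within-group SD over tested probes was 0.438 at day 14 and 0.339 at day 0, and it was larger at day 14 for 66.0% of probes. The median SE of a log2 fold change was 0.268 against 0.210. The median absolute log2 fold change was 0.244 at day 14 and 0.225 at day 0. Probes whose groups did not overlap numbered 353 at day 14 and 904 at day 0, where 456 were higher (2.95%) and 448 lower (2.9%). The 75th percentile before centring was 276.8 to 533 signal units at day 14 and 658 to 951 at day 0. Arrays of the days also lay partly on different slides. The part of array signal and slide in the larger spread was not tested.

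**Figure D4:**
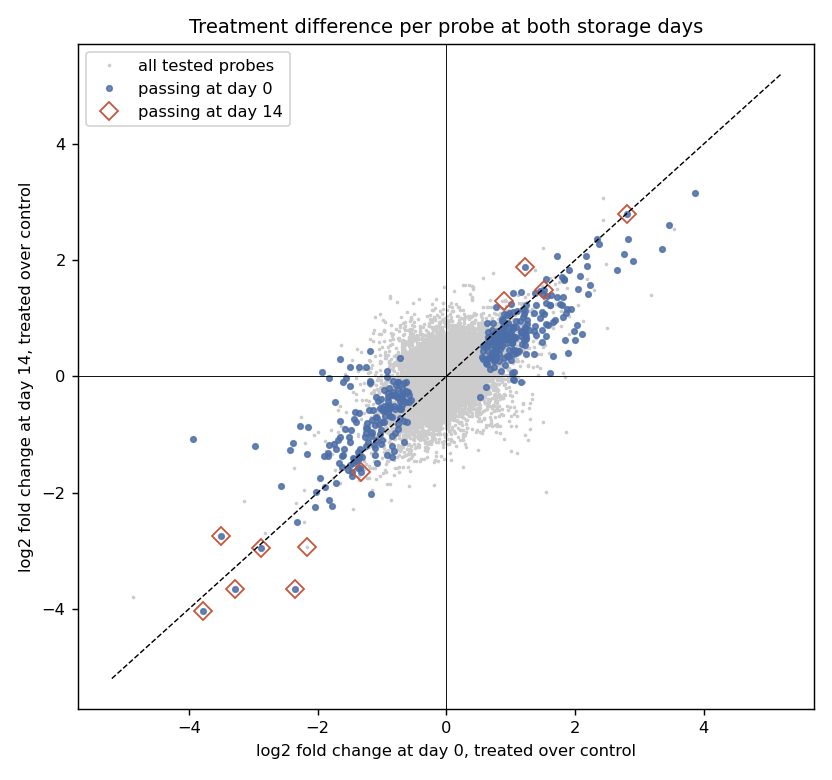
Log2 fold change of treated over control at day 0 (horizontal axis) and day 14 (vertical axis) for all 15438 tested probes (grey), the 382 that passed at day 0 (blue) and the 11 that passed at day 14 (red diamonds), with the line of equal values dashed. All 11 diamonds lie on the same side of 0 at both days, and most blue points lie between the dashed line and 0.

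Single genes differed in how much of the day 0 value was measured after storage. Among the 10 genes with the largest positive day 0 values, IFIT3 (2.81 at day 0, 2.79 at day 14), C10H15orf48 (2.34 and 2.36), IDO1 (2.37 and 2.27) and GBP1 (2.18 and 2.07) had nearly equal values. RBP7, a retinol-binding protein, had 2.10 ± 0.24 at day 0 and 0.73 ± 0.56 at day 14. Among the 10 with the largest negative values, PER1 (-2.89 at day 0, -2.95 at day 14), CYP1A1 (-3.79 and -4.03), RGS1 (-3.29 and -3.65) and GADD45G (-2.32 and -2.50) had similar values at both days. DPP6, a potassium channel subunit, had -3.94 ± 0.68 at day 0 and -1.07 ± 1.04 at day 14, when its signal was 6.96 in K3 and 7.77 in K6 but 2.39 to 3.17 in K8, K9 and K10. GDF10, a growth factor of the TGF-beta family, had -2.97 ± 0.54 and -1.19 ± 0.45, and was above background on 1 array per group at day 14.

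No gene passed the test of whether its treatment difference changed with storage. The interaction of treatment and day, fitted on each animal's day 14 minus day 0 value, gave 0 calls in limma after adjustment and 584 probes (3.78%) at an unadjusted p under 0.05, and no call arose when any animal was left out. Of the genes with the smallest interaction p, MB had 0.79 at day 14 and -0.49 at day 0, SCN4B, a sodium channel subunit, 1.02 and -0.71, and UBA1, the ubiquitin-activating enzyme, 0.32 and -0.95. In the other direction TNC, the matrix protein tenascin-C, had -1.29 and 1.01, and GEM, a small GTPase, -0.51 and 0.63. The adjusted p of the interaction was 0.998 for each of these 5 genes, so none passed.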

How the data were processed

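Neck muscle RNA of 5 control and 5 treated animals at storage day 14 was compared, with day 0 of the same animals beside it. Each array is 1 animal. Per the file headers, the authors extracted intensity values from 1-colour Agilent arrays with Feature Extraction 9.5.1.1. The deposited processed signal is a background-subtracted, detrended intensity. A deposited series table holds linear intensity normalized between arrays by an unstated method (array medians from 96.5 to 162.5) and served as an alternative. Per the submitters' processing notes, R 2.11.1 was used. Deposited marks for outlier, saturated and well-above-background spots are other values used for filtering.

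Treatment and day came from titles and characteristics. The description field contradicts them on the day for part of the samples and was not used. Log2 signal was taken, and from each array its 75th percentile was subtracted and the mean of these percentiles added. Outlier spots (935 over the 20 arrays) and 1417 control spots per array were left out, and spots of a probe were averaged. A probe counted as well above background on an array when any of its spots, outliers included, was marked so. A probe was tested when well above background on at least 5 of 20 arrays, which kept 15438 of 21475. Of these, 8 lacked a value on some day 14 array. Where a probe was above background on no array of a group, its fold was also taken with a floor. Each value of that group was set to the lowest signal among probes well above background on its array or the probe's own signal, whichever was higher. A probe can lie above that floor and still not be well above background, so this fold is not a lower limit.

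Names came from the array annotation matched to RefSeq gene tables (assembly ARS-UCD2.0): 12374 tested probes carried 11398 symbols, 3064 none. No sequences or positions were used here.

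Groups were compared with limma 3.58.1 (statmod 1.5.0, data.table version 1.17.8, R 4.3.3), lmFit and eBayes on the 10 day 14 arrays, adjusted by Benjamini-Hochberg over tested probes, with a threshold of 0.05. The script was tested on simulated data. A gene is represented in single-gene values by its probe of smallest p at day 14 and in lists by its probe of highest mean signal, so a gene's own value and its list value can differ. Named genes were the passing genes, the 10 of smallest p per direction short of the threshold, the 5 largest per direction among genes whose groups did not overlap, the 10 largest per direction at day 0, the 3 of smallest interaction p per direction, the 2 of smallest p in each list, and a set of hormone and muscle genes. The comparison, the gene lists and the named genes were chosen with earlier results of these data known. Some genes that these rules name are not reported here. Lists are described by counts and medians, without tests. Array signal was compared with two-sided exact permutation tests. Precision is limited by the number of animals. Tables and figures used Python 3.11.15, numpy 2.4.6, pandas 2.3.3, scipy 1.17.1 and matplotlib 3.10.9.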

Additional observations from a re-analysis of the deposited data

Results flagged for a closer look

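In 5 of 104 groups of 5 animals that were checked, 1 animal lay farther from its group than Dixon's limit of 0.71 for the gap over the range allows. Chance gives about 1 such group in 20. IFIT3 was highest among controls in K6, at a log2 signal of 3.47 against 2.31 for the next control, and K6 was still below all treated animals. HES6 was highest among controls in K9, at 6.70 against 5.86. Insulin and PI3-kinase signalling genes were lowest among controls in K6, with a median deviation of -0.14. Satellite cell and myogenic genes were lowest among treated animals in DE27, at -0.44 against -0.09 for the next animal. Calpains and meat proteases were also lowest among treated animals in DE27, at -0.26. K6 and DE27 are the arrays farthest from their groups over all probes, and their part in these values was not tested further.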

How the results depend on the processing

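The number of probes past the threshold at day 14 (11) moved with the fit. It was 106 with all 20 arrays and the animal as replicate block (correlation within animals 0.033), and 100 with the same arrays without a block, an alternative chosen after seeing the data. Both fits compare the same 5 against 5 animals, and take the spread from more arrays. They assume an equal spread at both days, but the median within-group SD was 0.339 at day 0 and 0.438 at day 14. The pooled spread can therefore understate that at day 14, and the larger counts are less certain. It was 20 with array weights, 7 when the probes of a gene were averaged, 7 when a probe had to be well above background on 10 of 10 arrays, 3 with the scan session as a block, 1 with normexp background correction and 0 with the slide as a block. Leaving out 1 animal gave from 0 to 12. Quantile normalization, median centring, the series table, the intensity trend, no filter and a filter of 5 of 10 arrays gave from 9 to 16. Day 0 calls ranged from 134 to 313 when 1 animal was left out. The interaction gave 0 calls in each setting run.

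Of the genes reported, 8 changed sign outside the fits that leave out an animal, and none of these had passed. With normexp STXBP5L was 0.039, CD3G 0.10, TSC22D3 0.083, KLF15 0.16, HSD11B1 0.14 and PDK4 -0.12. With quantile normalization MYH7 was -0.052 and PDK4 -0.010. With array weights MSTN was 0.032 and PDK4 -0.21. PDK4 was -0.032 in the series table and -0.00038 with median centring. Leaving out 1 animal moved CAST from -0.20 to 0.028, IGF1 from -0.50 to 0.10, MSTN from -1.29 to 0.10, PDK4 from -0.75 to 0.40 and TRIM63 from -0.051 to 0.43. It moved the treated minus control difference in the median signal below the 75th percentile from -0.020 to 0.054, and that in the share of spots above background from -1.77 to 0.65 percentage points. The cause was not tested. Signals near background, as for IFIT3, SLC4A4 and HES6, are the least certain.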

Other observations

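Among probes well above background on all 5 treated and on none of the control arrays at day 14, beside ZBP1, were PIANP and a probe without a gene name. PIANP was 1.92-fold higher (0.94, limma adjusted p = 0.331). The unnamed probe was 2.65-fold higher with control values set as for IFIT3 (fitted 1.43, limma adjusted p = 0.162). Proteasome subunits had a median log2 fold change of 0.22 (0.13 without K6) with 34 of 40 above 0, and autophagy genes 0.06 (-0.02 without DE30) with 14 of 20 above 0, with no call in either list (0 by limma after adjustment). At an unadjusted limma p under 0.05, proteasome subunits had 1 higher and 0 lower, and autophagy genes 3 higher and 1 lower. Over all probes the shares were 5.61% higher and 4.86% lower. Within slides 2, 4 and 5 the proteasome median was 0.65, 0.60 and -0.55, and the autophagy median was 0.31, 0.37 and -0.44. Mitochondrially encoded genes had a median of 0.39 with 12 of 13 above 0, and at day 0 the median was -0.07. With quantile normalization the day 14 median was 0.14. Antioxidant and metallothionein genes had a median of 0.26 (0.13 without DE27, and 0.63, 0.35 and -0.27 within slides 2, 4 and 5) with 25 of 33 above 0. HMOX1, which degrades haem, had 0.90 ± 0.34 (limma adjusted p = 0.408), and MT2A, a metallothionein, had -1.11 ± 0.55 (limma adjusted p = 0.517).

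XIRP1, an actin-binding protein of muscle repair, ranged from 5.45 to 6.36 in controls and from 6.63 to 7.78 in treated animals (1.30 ± 0.26, limma adjusted p = 0.145). SYNPO2, an actin-associated protein of the Z-disc, ranged from 9.57 to 10.56 in controls and from 8.33 to 9.18 in treated animals (-1.25 ± 0.26, limma adjusted p = 0.149). PMP22, a myelin protein, ranged from 12.41 to 12.68 in controls and from 10.53 to 11.98 in treated animals (-1.27 ± 0.30, limma adjusted p = 0.193). FABP5, a fatty acid carrier, had 1.40 ± 0.33 (limma adjusted p = 0.202), and its other probe gave 1.39. In each of these 4 genes the groups did not overlap.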
